A study of Arabidopsis thaliana with 39 samples.

Results

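Heat shock factors (HSFs) are the transcription factors that switch on heat shock protein genes. The 8 genes described here are the Arabidopsis class A HSF genes for which stress-dependent transcription is known or proposed: HSFA2 (AT2G26150), HSFA3 (AT5G03720), HSFA4A (AT4G18880), HSFA6A (AT5G43840), HSFA6B (AT3G22830), HSFA7A (AT3G51910), HSFA7B (AT3G63350) and HSFA8 (AT1G67970). They were taken by their locus identifiers, with no rule on measured values, but earlier results of these data were known when they were chosen. All 8 were found among the 33602 gene identifiers of the heat RNA-seq tables. They were also found among the 64790 genes and transposable elements of the lug tables. RNA was sequenced from morchex, the mutant that combines morc1-2, morc2-1, morc4-1, morc5-1, morc6-3 and morc7-1, and from WT, both Col-0. Plants aged 5 to 6 weeks were sampled before heat (T0), after 0.5 h at 37 °C (T30), and 48 h later at normal temperature (T48). The label of the middle time point gives it as 0.5 h. Each WT group comprised 3 libraries, and the morchex groups comprised 3 (T0), 2 (T30) and 2 (T48). All 16 samples carried the heat label, and no unheated plants of the later times were among the samples used here, so heat and elapsed time cannot be told apart. A second set held 3 libraries of lug, a mutant in the gene of the co-repressor LEUNIG (LUG), and 3 of its background Ler, with no heat treatment on their labels. Peak lists of anti-FLAG ChIP-seq for TOPLESS (TPL) and LUG, each expressed from its native promoter with a 3xFLAG tag in morchex or in WT, were also used, with 1 list for each combination.

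HSFs bind heat shock elements (HSEs), in which short units that read GAA or its complement TTC alternate in direction, and they bind as trimers with 1 DNA-binding domain on each unit. Class A members carry activation motifs at the C terminus, whereas most class B members lack them and many repress. In Arabidopsis the HSFA1 proteins are present before stress and are released from chaperones by heat. They then switch on other regulators, among them HSFA2, HSFA7A, HSFA7B and DREB2A, and DREB2A in turn binds the promoter of HSFA3. HSFA2 is known for keeping heat shock protein genes active after the stress has ended. HSFA4A and HSFA8 are mostly known from responses to reactive oxygen, and HSFA6A and HSFA6B from responses to abscisic acid, salt and drought.

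Libraries of morchex were deeper than those of WT at every time. Totals of expected counts, to the nearest 100, were 12752800 to 17920400 in morchex against 8606400 to 11754100 in WT at T0, 19597300 to 24868500 in morchex against 10836100 to 15342600 in WT at T30, and 24374600 to 25054400 in morchex against 9455300 to 11731200 in WT at T48. They were 12749800 to 15342100 in lug and 11411600 to 15862600 in Ler. The labels name floral tissue and the methods flower buds, but LFY was at 0 in every heat library, and AP1, AP3 and PI reached at most 0.10, 0.20 and 0.60 TPM there. AG lay between 0.87 and 2.64 TPM and SEP3 between 2.08 and 15.8 TPM. The defining genes of the labelled tissue were thus largely absent. Their part in the results was not tested, and fewer cells of a type cannot be told apart from less RNA per cell in such bulk samples.

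The promoters of 4 of the genes are shown because they differ in the one feature that marks an HSE, and because these 4 genes rose at T30. Each run is the 250 bases before the annotated RefSeq transcription start on build TAIR10.1, read 5′ to 3′ on the strand of the gene. Capitals mark every pair of facing or opposed HSE units, GAANNTTC or TTCNNGAA, with overlapping pairs merged.
HSFA2, chr2:11135374-11135623 (+ strand): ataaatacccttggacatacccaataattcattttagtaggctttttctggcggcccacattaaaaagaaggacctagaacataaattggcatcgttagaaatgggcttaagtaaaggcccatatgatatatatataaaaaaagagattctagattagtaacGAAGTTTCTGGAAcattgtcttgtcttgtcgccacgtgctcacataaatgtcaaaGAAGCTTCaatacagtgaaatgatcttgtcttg
HSFA7A, chr3:19264891-19265140 (+ strand): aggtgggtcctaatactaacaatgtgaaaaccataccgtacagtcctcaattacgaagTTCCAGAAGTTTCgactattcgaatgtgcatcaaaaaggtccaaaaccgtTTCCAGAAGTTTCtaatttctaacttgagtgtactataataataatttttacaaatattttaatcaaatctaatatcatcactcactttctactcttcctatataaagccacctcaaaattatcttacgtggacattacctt
HSFA7B, chr3:23398986-23399235 (+ strand): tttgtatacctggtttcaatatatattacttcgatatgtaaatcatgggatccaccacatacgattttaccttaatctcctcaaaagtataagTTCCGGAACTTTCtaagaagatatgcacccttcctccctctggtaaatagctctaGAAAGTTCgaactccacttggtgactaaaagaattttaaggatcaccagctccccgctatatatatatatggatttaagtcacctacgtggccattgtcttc
HSFA3, chr5:974327-974576 (- strand): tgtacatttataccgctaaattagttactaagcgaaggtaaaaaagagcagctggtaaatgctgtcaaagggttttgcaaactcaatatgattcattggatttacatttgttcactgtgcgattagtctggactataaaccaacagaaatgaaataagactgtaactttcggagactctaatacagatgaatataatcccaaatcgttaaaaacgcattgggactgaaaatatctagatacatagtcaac
Runs of 3 alternating units, spaced by 2 bases, began 88 bases before the start of HSFA2, 192 and 142 bases before that of HSFA7A, and 157 bases before that of HSFA7B. Such a run was found in 0.49% of 26711 promoters searched over 250 bases before to 50 after the start. Both runs of HSFA7A had the same letters, TTCCAGAAGTTTC. In a run of 3 units the pairs GAANNTTC and TTCNNGAA overlap by 1 unit, and each pair reads the same on both strands. Single pairs that belonged to no run began 33 bases before and 7 bases after the start of HSFA2, 102 bases before that of HSFA7B, 173 bases before that of HSFA4A and 26 bases after that of HSFA8. GAANNTTC occurred in 11.49% and TTCNNGAA in 9.07% of all promoters. Neither pair was found in the windows of HSFA3, HSFA6A and HSFA6B. The DRE core to which DREB2 proteins bind was searched on both strands as ACCGAC (5.71% of promoters) and GCCGAC (3.29%) and was found in none of the 8 windows. Over 1000 bases before to 200 after the start, ACCGAC (18.69% of promoters) began 659 bases before HSFA7A and 930 bases before HSFA7B and was not found at the other 6 genes, HSFA3 included, and GCCGAC (11.64%) was found at none. In this wider window TTCNNGAA (35.73% of promoters) began 771 bases before HSFA3 and 438 bases before HSFA6B, and neither HSE pair was found at HSFA6A. Further pairs lay beyond the shorter window at HSFA2, HSFA7A and HSFA7B. These matches describe letters only and show no binding.

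The first question was which of these genes responded to 0.5 h of heat, and whether they did so in both genotypes. At T30 in morchex 4 of the 8 genes rose and none fell, and at T30 in WT 4 rose and 1 fell. A call required an edgeR adjusted p under 0.05 and a fold change over 2. Among all 18827 genes tested, 5.59% rose and 5.17% fell in morchex, and 6.21% rose and 7.2% fell in WT. HSFA2, HSFA7A, HSFA7B and HSFA3 rose in both genotypes, HSFA8 fell in WT, and HSFA4A passed in neither. HSFA6A and HSFA6B had too few counts to be tested, so 6 of the 8 genes entered the fit.

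HSFA2 lies on chr2:11135624-11137792, plus strand. At T30 it stood at 1013.02 and 1270.90 TPM in morchex and at 976.59, 1391.57 and 1643.96 TPM in WT. At T0 it stood at 1.24, 1.90 and 1.13 TPM in morchex and at 0.99, 1.51 and 0.50 TPM in WT. Every heated library lay far above every library taken before heat, and the ranges of both genotypes overlapped at T30. The log2 fold change of T30 against T0 was 9.96 (SE 0.32, edgeR adjusted p = 1.83e-11) in morchex and 10.75 (SE 0.33, adjusted p = 1.08e-11) in WT, or 997-fold and 1719-fold. These were the 6th and the 10th highest fold changes of the 18827 genes. Counts behind the T30 values were 18314 to 37623 per library. Ranked by TPM within a library, HSFA2 held places 104 to 148 at T30 and places 15630 to 17932 at T0, of 33602 genes.

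HSFA7A lies on chr3:19265141-19266806, plus strand, and its promoter holds both of the identical runs of HSE units. At T30 it stood at 163.44 and 264.91 TPM in morchex and at 181.56, 357.86 and 278.51 TPM in WT. At T0 it stood at 0.62, 0.24 and 0.63 TPM in morchex and at 0.53, 0.67 and 0.37 TPM in WT. No T30 library came near the T0 libraries. Against T0 the log2 fold changes were 8.94 (SE 0.43, edgeR adjusted p = 1.14e-09) in morchex and 9.37 (SE 0.44, adjusted p = 7.33e-10) in WT.

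HSFA7B, on chr3:23399236-23400812, plus strand, is the closest relative of HSFA7A. At T30 it stood at 4.05 and 13.64 TPM in morchex and at 7.42, 42.00 and 18.99 TPM in WT. At T0 it had 0 counts in all 3 morchex libraries and 1 count in the 3 WT libraries together. It was thus essentially silent before heat, and its replicates at T30 spread more widely than those of HSFA2 and HSFA7A. The heated morchex libraries held 275 counts, at least 122-fold more than 3 counts over the T0 group would give (edgeR adjusted p = 0.000792). In WT, 527 counts at T30 against 1 count at T0 gave a ratio of 591 with an exact 95% interval from 106 to 23400, which covers counting error only (edgeR adjusted p = 0.000175).

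HSFA3, on chr5:971142-974326, minus strand, is a known target of DREB2A, and its window held none of the HSE pairs and no DRE core. At T30 it stood at 25.82 and 29.58 TPM in morchex and at 25.45, 32.36 and 23.07 TPM in WT. At T0 it stood at 7.56, 5.95 and 6.45 TPM in morchex and at 4.62, 6.38 and 4.25 TPM in WT. The T30 and T0 libraries did not overlap, but the distance between them was far smaller than for the other 3 genes that rose. The log2 fold change was 2.35 (SE 0.19, edgeR adjusted p = 2.9e-07) in morchex and 2.81 (SE 0.19, adjusted p = 2.8e-08) in WT, or 5.08-fold and 6.99-fold.

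HSFA8, on chr1:25484449-25486512, minus strand, moved the other way. At T30 it stood at 6.60 and 5.34 TPM in morchex and at 3.90, 5.89 and 4.99 TPM in WT. At T0 it stood at 12.92, 9.48 and 13.11 TPM in morchex and at 11.89, 13.97 and 14.83 TPM in WT. In both genotypes every T30 library lay below every T0 library. HSFA8 fell by 1.06 on the log2 scale in WT (SE 0.18, edgeR adjusted p = 0.000343). In morchex the log2 fold change was -0.71 (SE 0.19, adjusted p = 0.011), which is short of 2-fold. The difference between these responses, 0.35, had an adjusted p of 0.679. Without WT replicate 1 at T30 the WT value was -0.88, and without WT replicate 3 at T0 it was -0.997, and each ended the call through the fold alone.

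HSFA4A, on chr4:10347479-10349902, minus strand, stood at 2.17 and 2.26 TPM in morchex at T30 and at 1.94, 1.99 and 1.24 TPM in WT at T30. At T0 it stood at 3.03, 2.68 and 2.79 TPM in morchex and at 2.00, 2.18 and 1.89 TPM in WT. The T30 and T0 ranges overlapped in WT, while in morchex both T30 libraries lay below the T0 libraries. The log2 fold change was -0.06 (SE 0.21, edgeR adjusted p = 0.849) in morchex, where it was 0.20 after thinning to the smallest library, and 0.18 (SE 0.22, adjusted p = 0.549) in WT, where it was -0.21 without TMM scaling. Leaving TMM out moved the median of all genes to -0.30 in morchex and to -0.41 in WT at T30.

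HSFA6A (chr5:17625353-17626487, minus strand) had at most 1 count in any of the 22 libraries and was above 0 in 4 of them. HSFA6B (chr3:8078789-8081059, plus strand) reached at most 6 counts and 0.29 TPM. It had 6 and 4 counts in the T30 libraries of morchex and 1, 0 and 0 in those of WT. With the difference in depth taken into account, 10 counts against 1 gave a ratio of 7.83 with an exact 95% interval from 1.11 to 340, which covers counting error only and was not tested across replicates. The same ratio at T0 was 1.76, with an interval from 0.42 to 10.3. At T48 the means went the other way, at 0.115 TPM in morchex and 0.193 TPM in WT. Neither gene had the counts for a test of its response.

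**Figure D1:**
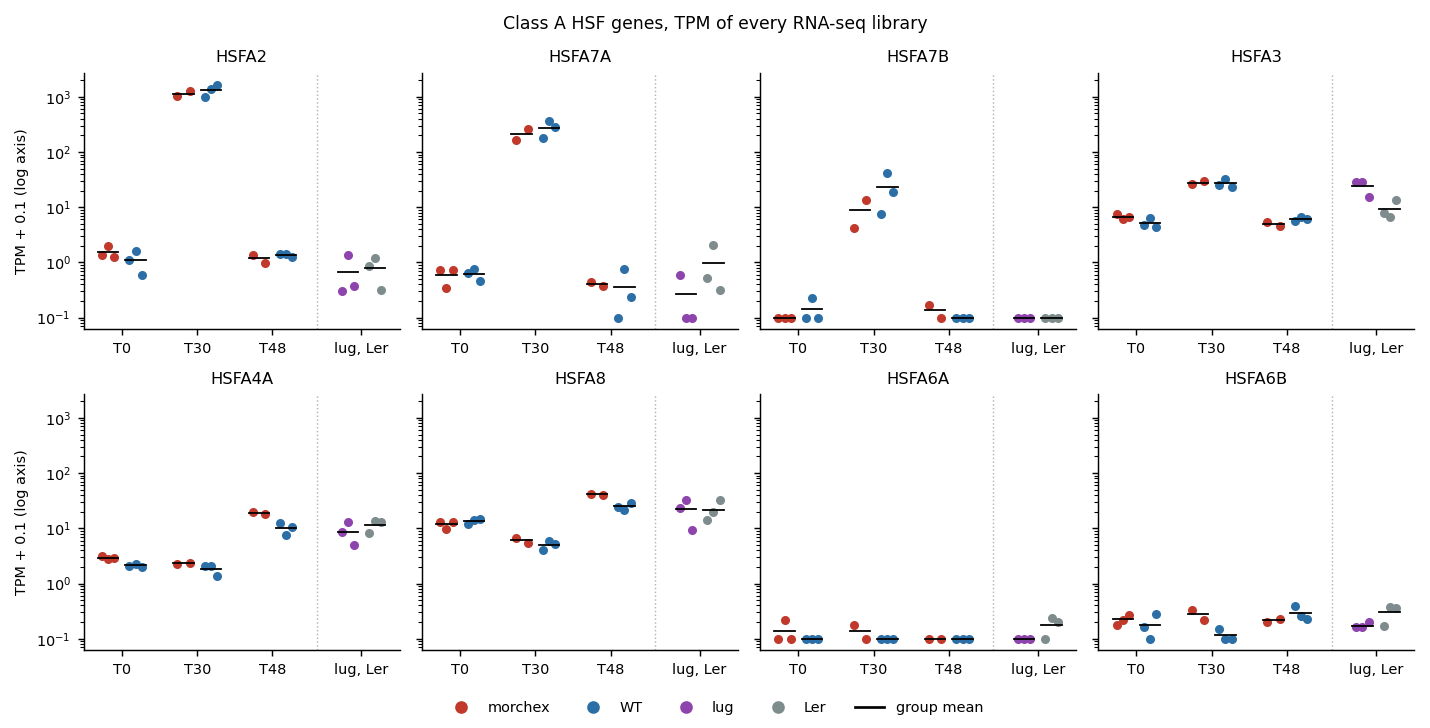
TPM + 0.1 on a log axis of each RNA-seq library (points) and the group mean (bar) for the 8 genes, with morchex left of WT at T0, T30 and T48, and lug left of Ler to the right of the dotted line. HSFA2 lies between 976.59 and 1643.96 TPM at T30, HSFA4A and HSFA8 are highest at T48, and HSFA6A and HSFA6B stay at or below 0.29 TPM throughout.

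The order of the levels turned round between T0 and T30. Going by mean TPM, the order before heat was HSFA8, HSFA3, HSFA4A, HSFA2 and HSFA7A in both genotypes. HSFA8 averaged 11.8 ± 2.04 TPM in morchex and 13.6 ± 1.51 TPM in WT (SD, n = 3 each), and HSFA3 averaged 6.65 ± 0.82 and 5.08 ± 1.14 TPM in morchex and WT. At T30 HSFA2 came first, with 1142 ± 182 TPM in morchex (SD, n = 2) and 1337 ± 337 TPM in WT (SD, n = 3), and HSFA7A came next, with 214 ± 71.8 TPM in morchex and 273 ± 88.3 TPM in WT. HSFA8 and HSFA4A had dropped to places below HSFA7B. Most neighbours in these orders had ranges that did not overlap, but those of HSFA2 and HSFA7A overlapped in WT at T0, those of HSFA3 and HSFA7B in WT at T30, and those of HSFA7B and HSFA8 in morchex at T30. At T48 HSFA8 led again, followed by HSFA4A, HSFA3, HSFA2 and HSFA7A, with no overlap between these neighbours in either genotype.

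The make-up of HSF transcripts changed accordingly. The 21 HSF genes summed to 1363 to 2261 TPM per library at T30, against 56.4 to 63.5 TPM at T0. The 8 genes made up 86.8% to 88.9% of that sum at T30 and 32.8% to 40.1% at T0. HSFA2 alone took 65.9% to 74.1% at T30, against 0.823% to 3.04% at T0, and HSFA7A took 11.9% to 16.95%, against 0.384% to 1.06%. The share of HSFA8 was 0.221% to 0.483% at T30 and 15.2% to 24.4% at T0. The libraries of the 2 time points did not overlap in any of these shares. At T48 the 8 genes held 43.1% to 46.0%, with HSFA8 at 24.0% to 28.2% and HSFA4A at 9.08% to 13.2%. These are shares of TPM and so compare transcripts per length.

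**Figure D2:**
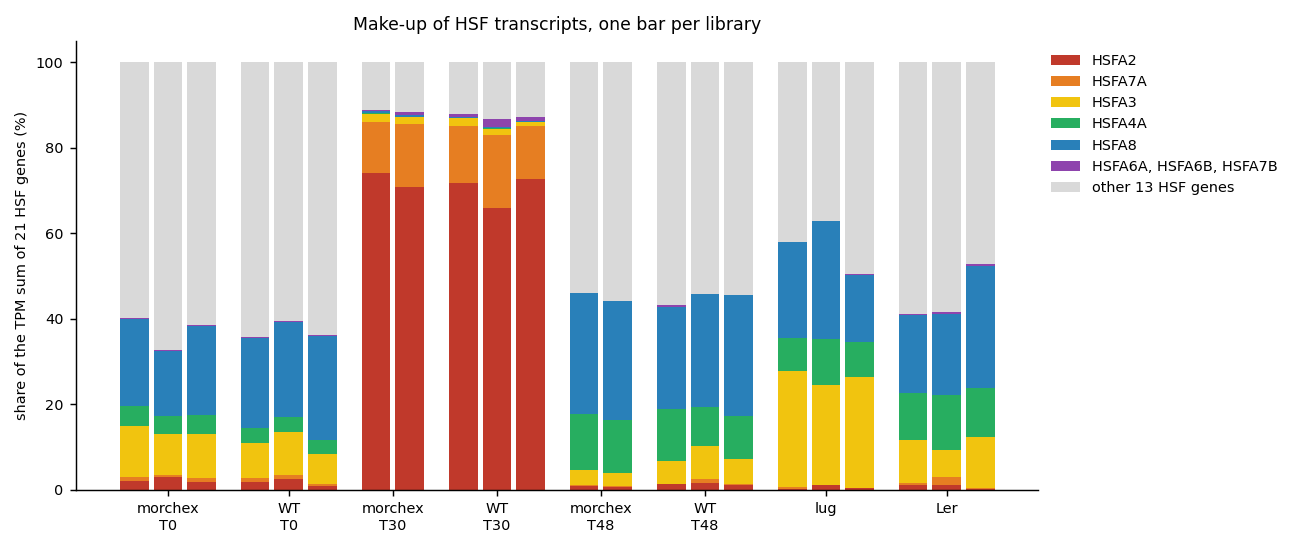
Share of the summed TPM of 21 HSF genes (%), 1 stacked bar per library, with morchex left of WT at each time and lug left of Ler. HSFA2 and HSFA7A fill most of each T30 bar, and at T48 HSFA8 and HSFA4A make up most of the coloured part.

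The other genes of the pathway give the surroundings of this change. Of the other 7 class A genes, 6 were tested and none was called by edgeR at T30, with 1 in morchex and 2 in WT at an unadjusted p under 0.05. The share of all genes at that unadjusted p is not given here. Values of these 6 genes ran from -0.04 to 0.65 in morchex and from -0.20 to 0.77 in WT on the log2 scale. Their median log2 fold change was 0.24 in morchex and 0.01 in WT, against medians of -0.01 and -0.03 over all genes. HSFA1D, one of the HSFA1 activators, had a log2 fold change of 0.65 (edgeR adjusted p = 0.0256) in morchex and of 0.77 (adjusted p = 0.00573) in WT, both under 2-fold. Of the 6 class B and C genes, 5 were tested and 4 rose in each genotype, with medians of 4.38 in morchex and 4.72 in WT. In WT these were led by HSFB1 (log2 fold change 6.89), HSFB2A (5.51) and HSFB2B (4.72), which belong to the class that mostly represses. Of 10 upstream regulators and binding partners, 7 rose in morchex and 8 in WT. The WT values were largest for HSP90.1 (9.87), a chaperone that holds HSFs, ROF2 (9.57), an immunophilin that acts with it, and MBF1C (8.68), a co-activator of the heat response. DREB2A, known to bind the HSFA3 promoter, rose as well, with log2 fold changes of 4.93 in morchex (edgeR adjusted p = 3.31e-08) and 5.51 in WT (adjusted p = 7.03e-09). Its part in the rise of HSFA3 was not tested. All 13 heat target genes rose in both genotypes, with medians of 7.69 in morchex and 9.29 in WT, and these medians were the same with the genes near 0 at T0 set to their lower bounds. APX2, an ascorbate peroxidase and a known HSFA2 target, stood at 38.7 and 93.8 TPM in morchex at T30 and at 98.9 to 340 TPM in WT at T30, with 3 counts in morchex and 1 count in WT at T0. HSP21, a plastid chaperone, stood at 33.4 and 123 TPM in morchex and at 83.2 to 409 TPM in WT at T30, and HSP17.6A, a cytosolic small heat shock protein, rose by 9.99 on the log2 scale in morchex and 11.45 in WT.

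The next question was what remained at T48. HSFA2, HSFA7A, HSFA7B and HSFA3 passed the test in neither genotype at T48 against T0, and HSFA4A rose in both. HSFA8 rose in morchex. This made 2 of 8 genes in morchex, where 13.8% of all genes rose, and 1 of 8 in WT, where 9.39% rose.

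HSFA4A, called in neither genotype at T30, stood at 19.83 and 18.12 TPM in morchex and at 12.25, 7.46 and 10.47 TPM in WT at T48. All 5 libraries lay above every T0 and T30 library of either genotype. Against T0 the log2 fold change was 2.42 in morchex (SE 0.19, edgeR adjusted p = 1.05e-07) and 2.11 in WT (SE 0.19, adjusted p = 2.03e-06), or 5.34-fold and 4.32-fold. Over the alternatives it lay between 2.32 and 2.70 in morchex and between 1.85 and 2.30 in WT.

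HSFA8 stood at 42.32 and 40.61 TPM in morchex and at 24.22, 21.59 and 29.21 TPM in WT at T48. In both genotypes these libraries lay above all T0 libraries, the reverse of T30. Against T0 the log2 fold change was 1.48 in morchex (SE 0.17, edgeR adjusted p = 4.31e-06) and 0.69 in WT (SE 0.16, adjusted p = 0.00399), and the WT value was under 2-fold.

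Of the late pollen and floral markers, only VEX1 and SEP3 were called for T48 against T0 in morchex. The 3 late pollen markers summed to 1.58 to 1.80 TPM at T48 against 0.22 to 0.88 TPM at T0 in morchex, and to 0.54 to 1.93 TPM against 0.62 to 1.15 TPM in WT. Of them VEX1 rose in morchex (log2 fold change 2.01, edgeR adjusted p = 0.00298) and in the interaction at T48 (2.62, adjusted p = 0.0363), VGD1 was at -1.73 (adjusted p = 0.443) and MGH3 was at 0. VEX1 alone stood at 1.47 to 1.80 TPM in morchex at T48, so it made up nearly all of that sum. The 6 floral markers summed to 3.52 to 8.54 TPM at T48 against 8.34 to 17.5 TPM at T0 in morchex, and to 4.58 to 7.32 TPM against 5.77 to 17.9 TPM in WT. These ranges overlapped in both genotypes. SEP3 fell in morchex (-1.52, edgeR adjusted p = 0.0352) and was at -1.05 in WT (adjusted p = 0.147). The part of these markers in the results for HSFA4A and HSFA8 was not tested.

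HSFA2 was back at 1.28 and 0.89 TPM in morchex and at 1.34, 1.31 and 1.17 TPM in WT at T48. Its log2 fold change against T0 was -0.68 (edgeR adjusted p = 0.12) in morchex and 0.11 (adjusted p = 0.858) in WT. HSFA7A stood at 0.34 and 0.27 TPM in morchex and at 0, 0.65 and 0.14 TPM in WT, and HSFA7B had 1 count in all 5 T48 libraries together. These 3 genes thus stood near or within their levels before heat. HSFA3 stood at 5.37 and 4.42 TPM in morchex, below all 3 T0 libraries, and at 5.43, 6.50 and 6.14 TPM in WT, within the range at T0 and just above it. Its log2 fold change was -0.77 in morchex (edgeR adjusted p = 0.00494, under 2-fold) and 0.04 in WT (adjusted p = 0.898).

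**Figure D3:**
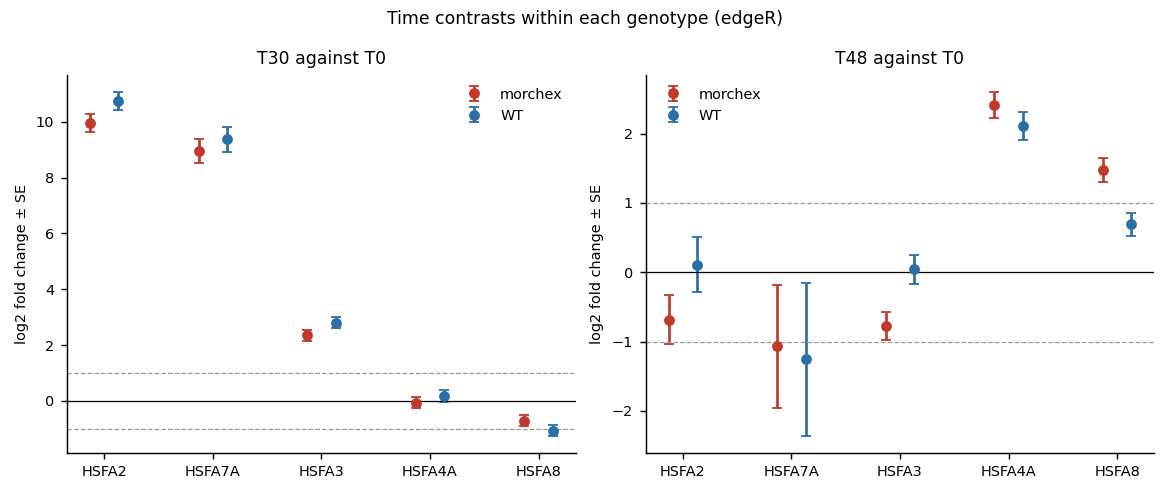
Log2 fold change against T0 (edgeR, ± SE) of 5 genes at T30 (left) and T48 (right), with morchex left of WT and dashed lines at 2-fold. At T30 HSFA2, HSFA7A and HSFA3 lie above the upper line, and at T48 HSFA4A lies above it in both genotypes and HSFA8 in morchex. HSFA7B is left out because its T0 groups held 0 and 1 count.

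The design then asks whether loss of the MORC proteins, which compact chromatin, changed these genes. None of the 8 passed the test between morchex and WT at T0, T30 or T48. Among all genes, 0.292% were called in either direction at T0, 0.59% at T30 and 6.21% at T48. At an unadjusted p under 0.05 without a fold threshold there were 1, 1 and 2 of the 6 tested genes, and DESeq2 called 0 at each time. The share of all genes under these other rules is not given here, so no excess can be read from these counts.

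The values nearest to a call came at T48, for the genes that were high there. HSFA4A stood at 19.83 and 18.12 TPM in morchex against 12.25, 7.46 and 10.47 TPM in WT, and HSFA8 at 42.32 and 40.61 TPM against 24.22, 21.59 and 29.21 TPM. For both genes the genotypes did not overlap. The log2 fold change was 0.78 for HSFA4A (SE 0.18, edgeR adjusted p = 0.00684) and 0.59 for HSFA8 (SE 0.17, adjusted p = 0.0215), or 1.71-fold and 1.5-fold. By the adjusted p alone, 12.6% of all genes were higher in morchex at T48. Over the alternatives the adjusted p of HSFA4A ran from 0.00194 to 0.082 and that of HSFA8 from 0.00894 to 0.141.

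At T30 the fitted levels of HSFA2, HSFA7A and HSFA7B were lower in morchex, by less than the test could call. The log2 fold change of morchex against WT was -0.36 for HSFA2 (SE 0.23, edgeR adjusted p = 0.403), -0.49 for HSFA7A (SE 0.28, adjusted p = 0.335) and -1.49 for HSFA7B (SE 0.66, adjusted p = 0.232). The value of HSFA7B rested on single libraries, at -0.64 without WT replicate 2, -0.86 without morchex replicate 1 and -2.69 without morchex replicate 2. For HSFA3 it was -0.09 (SE 0.18, adjusted p = 0.82), with 0.01 without TMM scaling. In all 4 genes the libraries of the genotypes overlapped. Of the heat targets, APX2 was called, at -1.95 (SE 0.44, adjusted p = 0.0404), and the median of the 13 was -1.33 against 0.01 over all genes.

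At T0 the log2 fold change of morchex against WT was 0.43 for HSFA2 (SE 0.37, edgeR adjusted p = 0.862), 0.37 for HSFA3 (SE 0.19, adjusted p = 0.74) and -0.20 for HSFA8 (SE 0.17, adjusted p = 0.857). HSFA4A was at 3.03, 2.68 and 2.79 TPM in morchex against 2.00, 2.18 and 1.89 TPM in WT. These 2 groups of 3 libraries did not overlap, and the log2 fold change of 0.47 (SE 0.20) had an unadjusted p of 0.0359 and an adjusted p of 0.639.

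**Figure D4:**
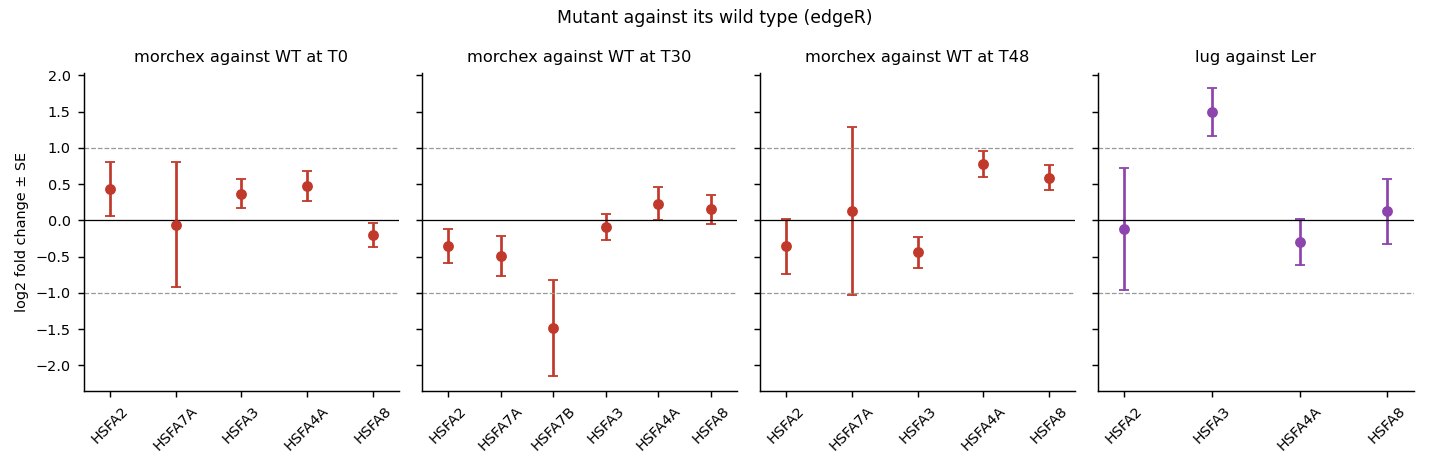
Log2 fold change (edgeR, ± SE) of morchex against WT at T0, T30 and T48 and of lug against Ler, for the genes tested in each, with dashed lines at 2-fold. HSFA4A (0.78) and HSFA8 (0.59) lie above 0 at T48 and short of the line, and HSFA3 lies at 1.5 in lug.

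Whether the response itself differed between genotypes was tested as an interaction, the log2 fold change in morchex minus that in WT. None of the 8 genes was called at T30, where 0.00531% of all genes were, and none at T48, where 3.7% were. An unadjusted p under 0.05 was reached by 0 of the 6 tested genes at T30 and by 2 at T48, and DESeq2 called 0 at both. Here too the share of all genes under these other rules is not given. For HSFA2 at T30 the difference was -0.79 (SE 0.44, edgeR adjusted p = 0.591). At T48 it was 0.79 for HSFA8 (SE 0.24, adjusted p = 0.0522), and over the alternatives the adjusted p ran from 0.0261 to 0.177 with the difference under 2-fold in each. By the test as fixed, the call of HSFA8 in morchex and its absence in WT are thus not shown to differ. The difference was -0.81 for HSFA3 (SE 0.29, adjusted p = 0.0885), which passed when all libraries were thinned to the depth of the smallest (-1.003, adjusted p = 0.03, 1 of 8 genes called). Over all its alternatives the adjusted p of HSFA3 ran from 0.03 to 0.267.

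In the lug set the question was whether loss of LUG moved these genes without heat. None of the 8 was called with edgeR, against 0.414% of the 17643 genes and elements tested there, and 4 of the 8 were tested. Replicate 3 of lug stood apart over all genes: its counts differed from those of lug replicates 1 and 2 with a chi-square per degree of freedom of 65.5 and 70.0, against 19.5 between replicates 1 and 2 and 19.0 to 29.6 within Ler. HSFA3 stood at 28.47, 27.96 and 15.18 TPM in lug against 7.60, 6.46 and 13.21 TPM in Ler. Each lug library lay above each Ler library, and the closest pair were 15.18 and 13.21 TPM. Its log2 fold change was 1.5 (SE 0.33), with an unadjusted p of 0.00283 and an adjusted p of 0.228. Without lug replicate 3 it was 1.69, with an adjusted p of 0.0736. DESeq2 gave 1.5 with an adjusted p of 0.00436, and the adjusted p over all alternatives ran from 0.00436 to 0.889. HSFA3 made up 23.4% to 27.03% of the HSF sum in lug and 6.28% to 11.9% in Ler. The summed TPM of the 6 floral markers moved with it, at 30.9 to 96.9 in lug against 7.67 to 28.0 in Ler, most of it from SEP3 (29.4 to 90.8 TPM in lug against 6.02 to 24.7 TPM in Ler). AP3 went the other way, at 0.08 to 0.20 TPM in lug against 0.33 to 0.65 TPM in Ler, and LFY and AP1 stayed at or below 0.09 TPM. The 3 late pollen markers summed to 0.71 to 1.04 TPM in lug against 2.21 to 2.73 TPM in Ler, with VGD1 at -3.09 on the log2 scale (edgeR adjusted p = 0.301) and MGH3 at 0 throughout. The part of these markers in the result was not tested.

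HSFA4A stood at 8.31, 12.71 and 4.83 TPM in lug and 8.27, 13.41 and 12.95 TPM in Ler, with a log2 fold change of -0.30 (edgeR adjusted p = 0.887). HSFA8 stood at 23.48, 33.05 and 9.28 TPM in lug and 13.80, 19.48 and 31.85 TPM in Ler, with 0.12 (adjusted p = 0.976) and -0.08 on the log2(TPM + 0.1) scale. HSFA2 did not exceed 1.25 TPM in any of these libraries and HSFA7B had 0 counts in all 6. The ranges of lug and Ler overlapped for each of these genes. Without lug replicate 3 the log2 fold change was -0.05 for HSFA4A, 0.46 for HSFA8 and 0.17 for HSFA2, which was at -0.12 with it. Set beside WT at T0, from tables that were made with another annotation and were not tested together, Ler held HSFA4A at 11.5 ± 2.84 TPM and WT at 2.02 ± 0.15 TPM, and HSFA8 at 21.7 ± 9.23 TPM and 13.6 ± 1.51 TPM (SD, n = 3 each).

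The genes most like each member were sought over the 16 heat libraries, by Pearson's r of log2(TPM + 1). The libraries share 3 time points, so any change between times that 2 genes share raises r, and the values are descriptions. For HSFA2 the nearest were HOP3 (r = 0.999), which links HSP70 to HSP90, AT1G07400 (0.999) and HSP101 (0.999), the chaperone that dissolves aggregates. For HSFA7A they were HSP101 (0.997), AT5G51440 (0.997) and HSP70T-2 (0.997). HSFA3 was closest to AT1G66080 (0.986), HSFA2 (0.983) and DAW1 (0.983), and HSFA7B to AT3G22090 (0.993), MIR824 (0.992) and AT1G21940 (0.990). HSFA4A and HSFA8 had neighbours of another kind, which were highest at T48. Those of HSFA4A were AT2G44290 (0.991), the receptor kinase BAK1 (0.991) and HAE (0.989), the receptor kinase of organ abscission. HAE stood at means of 2.22, 2.06 and 39.7 TPM at T0, T30 and T48 in morchex and of 1.84, 0.91 and 19.5 TPM in WT. Those of HSFA8 were SRO1 (0.985), AT2G39960 (0.985) and the elongation factor gene IWS1 (0.985). Among the genes described here, r was 0.944 to 0.996 between HSFA2, HSFA3, HSFA7A and HSFA7B, and 0.886 between HSFA4A and HSFA8.

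The ChIP-seq lists show where the co-repressors TPL and LUG, tagged and taken from plants with no heat on their labels, had peaks near these genes. A promoter was counted when a peak summit lay between 1000 bp before and 200 bp after the start. In TPL this held for 2 of 8 genes in morchex, HSFA2 and HSFA7B, and for 3 of 8 in WT, HSFA6B, HSFA7A and HSFA7B. In LUG it held for HSFA3 in morchex and for none in WT. Over the 32835 genes with a position the shares were 19.1% and 14.2% for TPL in morchex and WT, and 7.44% and 3.56% for LUG. With 1 list for each protein and genotype, no difference between genotypes could be tested, and none of these promoter summits had a -log10 q of 10.

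HSFA7B was the gene with a promoter summit of TPL in both lists, 478 bp upstream in morchex and 433 bp upstream in WT, with fold enrichments of 1.93 and 1.86. These summits were weak, at places 9369 of 12224 and 7876 of 10267 by q. Both lay nearer to the start of the neighbour AT3G63340. The LUG summit at HSFA3 in morchex lay 55 bp downstream, in a UTR exon (fold enrichment 1.91, place 4085 of 5351). TPL had summits at HSFA3 as well, just past the 200 bp limit, 218 bp downstream in morchex and 217 bp downstream in WT. In WT the TPL summits at HSFA6B and HSFA7A lay 110 and 102 bp downstream, each in a UTR exon. The TPL summit at HSFA2 in morchex, 469 bp upstream (fold enrichment 1.80, place 11617), lay within the neighbour AT2G26140.

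The strongest peaks were at HSFA4A. Their summits fell just outside the 1000 bp limit, while the TPL peaks of both genotypes and the LUG peak of morchex reached into the window. In TPL the summit lay 1143 bp upstream in morchex (chr4:10350452-10354316) and 1173 bp upstream in WT (chr4:10349585-10354434), in intergenic sequence for which HSFA4A had the nearest start. The fold enrichment was 6.35 at place 84 of 12224 in morchex and 4.75 at place 119 of 10267 in WT. LUG had a summit at nearly the same spot, 1156 bp upstream in morchex (fold enrichment 3.04, place 835 of 5351) and 1201 bp upstream in WT (3.06, place 327 of 2721). All 4 lists thus placed a summit between 1143 and 1201 bp before HSFA4A. LUG in WT had another summit 2229 bp upstream (fold enrichment 2.13, place 1664 of 2721), 255 bp from the start of the neighbour AT4G18890. Both TPL peaks covered that summit and that start, so these peaks cannot be assigned to HSFA4A alone. HSFA7A had TPL summits just past the limit in both genotypes, 1124 bp upstream in morchex (fold enrichment 2.502) and 1066 bp upstream in WT (2.43). Farther out it had a TPL summit 2896 bp upstream in morchex (4.602, place 1322), a TPL summit 4392 bp upstream in WT (4.23, place 724) and a LUG summit 2868 bp upstream in WT (2.41, place 1041). The TPL peak of WT (chr3:19260250-19262454) covered the other 2 of these summits, so the summits do not mark separate sites. HSFA8 had no peak within 3000 bp of the gene in any list.

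**Figure D5:**
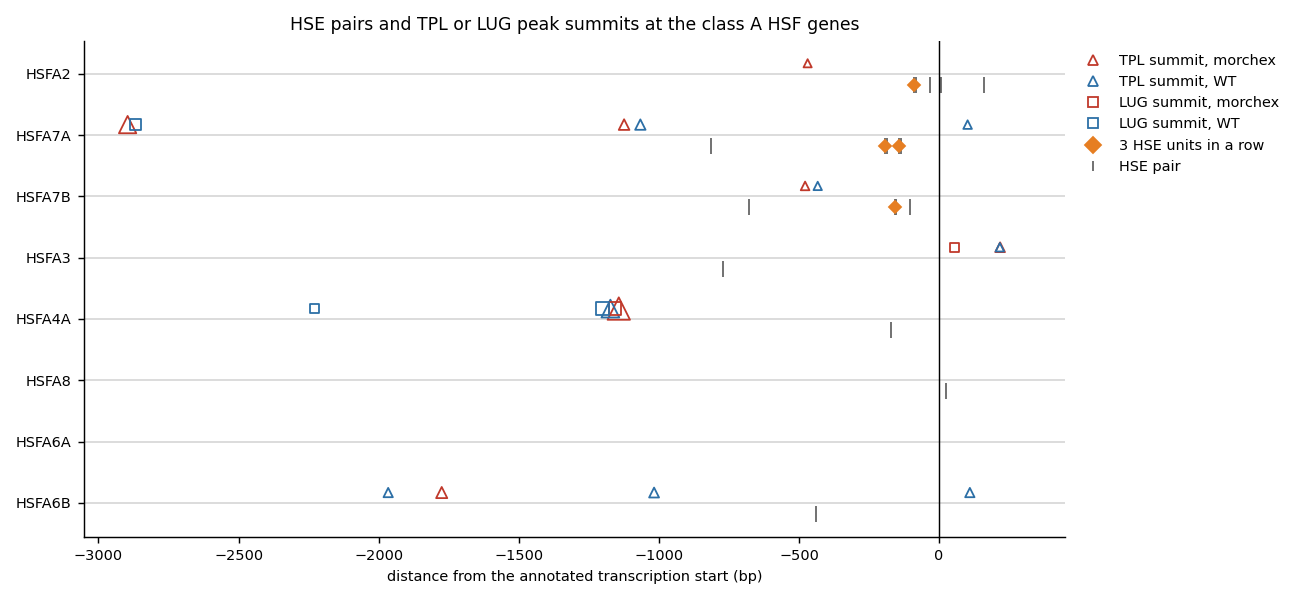
Distance from the annotated start (bp) of TPL summits (triangles) and LUG summits (squares) in morchex (red) and WT (blue), with larger symbols for higher fold enrichment, and of HSE pairs (ticks) and runs of 3 units (diamonds) for the 8 genes, the HSE search covering 1000 bp before to 200 bp after the start. The summits of all 4 lists gather 1143 to 1201 bp before HSFA4A, and diamonds lie only at HSFA2, HSFA7A and HSFA7B.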

How the data were processed

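RNA-seq libraries of morchex and WT at T0, T30 and T48 (16) and of lug and Ler (6), and ChIP-seq peak lists of TPL and LUG in morchex and WT (4), were analysed. RNA reads had been mapped on TAIR10 (Bowtie2 2.1.0, RSEM) by the authors, who deposited an expected count, which is not normalized, and TPM, which is scaled for length and to a fixed sum, for each gene. The library kit was stranded, and whether counting used strand is not given in the sources used here. For ChIP-seq the authors deposited MACS2 2.1.1 lists with a score, a fold enrichment (a ratio) and a −log10 q for each peak. The score was not used. Other libraries were not used here.

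Expected counts were rounded to whole numbers, filtered by edgeR's rule for low counts and tested with edgeR 4.0.16 (TMM, quasi-likelihood, Benjamini-Hochberg adjustment) in R 4.3.3, with limma 3.58.1 for log2 TPM values. The 16 heat libraries were fitted together in 6 groups, since morchex had only 2 libraries at T30 and T48, and lug and Ler were fitted separately. Calls required an adjusted p under 0.05 and a fold change over 2. Each SE printed with an edgeR value was derived from the test. It is the absolute log2 fold change divided by the square root of the F statistic. Because the sources do not say whether replicates came from separate plants, p-values measure the spread between these samples, which may be technical. In a simulation of T30 against T0 in WT on 18348 genes, all 200 genes changed 4-fold were recovered with 3 false calls, and for lug against Ler on 17451 genes 193 of 200 (96.5%) were, with 7 false calls. The changed genes were drawn only from genes above a minimum level, and the spread of each gene followed the fitted trend. The simulation thus did not cover changes under 4-fold, comparisons with groups of 2 libraries or genes with few counts. Where a group had 0 counts the fold was bounded against 3 counts over the group, and intervals for 1 to 3 counts were exact at 95%. Both cover counting error only.

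Genes were named by rule: the 8 members in every comparison, the 3 called genes of each pathway list with the largest change for T30 against T0 in WT, and the 3 most similar genes for each member. HSFA1D, DREB2A and the genotype value of APX2 were added after their values were seen. The members and lists were chosen with earlier results of these data known. Positions came from RefSeq TAIR10.1, in which 32835 of 33602 identifiers were found and whose chromosomes have the lengths of TAIR10. Alternatives were DESeq2 1.42.0, no filter, unadjusted p, no fold threshold, only the groups compared, the replicate number as a block, no TMM, thinning to the smallest library, log2(TPM + 1) and log2(TPM + 0.1), each library left out, and, for peaks, a −log10 q of at least 10, a 3000 bp window and any overlap. Tables and figures were made in Python 3.11.15 (matplotlib 3.10.9, pandas 2.3.3, scipy 1.17.1).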

Additional observations from a re-analysis of the deposited data

How the results depend on the processing

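The direction and the call were kept in 801 of the 850 alternative values of single genes. Under the unadjusted p and without the fold threshold the main fitted values were reused, so only the call could change there. The numbers of called genes kept within 1.5 times of those reported except as follows. Without a fold threshold, 2 were called for T48 against T0 in WT and 2 for morchex against WT at T48. With the unadjusted p, 1 was called for morchex against WT at T30 and 1 for lug against Ler, and DESeq2 called 1 for lug against Ler. By that unadjusted rule 352 of all 18827 genes rose and 179 fell for morchex against WT at T30. For lug against Ler 211 of 17643 rose and 236 fell. Thinning called 1 for the interaction at T48. Shares of all genes for DESeq2 and thinning are not given here. Replicate numbers showed no pairing of the samples: the deviations of 35 same-numbered heat pairs correlated at -0.20 to 0.17 (median -0.01). In groups of 2 libraries the deviations mirror each other, so these values do not settle whether samples were paired. With the replicate block 1 gene (HSFA7B, -1.46) was called for morchex against WT at T30, and HSFA7A was at -0.0731 for morchex against WT at T48 and at -0.067 for the interaction at T48. Leaving out single libraries gave 4 to 5 calls for T30 against T0 in WT. With 1 library left in a morchex group, that library is assumed to vary like the other groups.

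Values near 0 changed sign. HSFA4A for T30 against T0 was -0.21 without TMM, -0.16 with log2(TPM + 1) and -0.25 with log2(TPM + 0.1) in WT, and 0.20 after thinning in morchex. HSFA3 for morchex against WT at T30 was 0.0126 without TMM, 0.0268 after thinning, 0.0484 with log2(TPM + 1) and 0.0504 with log2(TPM + 0.1). HSFA7A for morchex against WT at T0 was 0.12 after thinning, and HSFA8 for lug against Ler was -0.0722 with log2(TPM + 1) and -0.082 with log2(TPM + 0.1). With libraries left out, the ranges were -0.15 to 0.51 for HSFA2 and -0.0591 to 0.23 for HSFA3 for T48 against T0 in WT, and -0.14 to 0.0082 for HSFA4A for T30 against T0 in morchex. For morchex against WT they were -0.24 to 0.21 (HSFA7A, T0), -0.24 to 0.10 (HSFA3, T30), -0.0275 to 0.34 (HSFA8, T30) and -0.43 to 1.76 (HSFA7A, T48), and -0.37 to 1.82 for the interaction of HSFA7A at T48. For lug against Ler they were -1.27 to 0.30 for HSFA2 and -0.27 to 0.51 for HSFA8. The cause was not tested.

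Genes with a promoter summit numbered 0 in each list at a −log10 q of at least 10. With a 3000 bp window they numbered 5 for TPL in morchex (30.88% of all genes), 2 for LUG in morchex (13.53%) and 2 for LUG in WT (7.13%). With any overlap they numbered 6 for TPL in morchex (25.57%), 5 for TPL in WT (20.47%) and 2 for LUG in morchex (8.81%). HSFA6A, HSFA6B and, before heat, HSFA7B were at the limit that depth sets.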
